A study of Drosophila melanogaster with 3 samples.

Results

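Eip75B encodes the ecdysone-induced nuclear receptor E75, and its locus carried Blimp-1-GFP peaks from beyond its most upstream start site to well past its 3′ end. The locus was taken as the gene (FBgn0000568, dm6, chr3L:17950953-18064696, minus strand, 114 kb) with 40 kb on either side. Of the 9515 peaks in the thresholded list, 56 had their summit there: 37 in the gene body, 9 in the upstream flank and 10 in the downstream flank. The locus was selected on the peaks themselves, so the number and strength of its peaks in that list are given as a description, with no test.

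The peaks come from chromatin immunoprecipitation and sequencing of whole Drosophila melanogaster embryos aged 10 to 12 h by the name of their source. The age field of the labels holds a number that cannot be an age. All embryos belonged to a transgenic line, named Blimp-1-GFP, whose Blimp-1 carries GFP at its C terminus, and an antibody against GFP precipitated chromatin sheared to 200 to 800 bp. The 3 samples are labelled as biological replicates of 1 group, with no other genotype, age or treatment, and all 3 were set against the same control alignment. Chromatin from every embryonic cell type was mixed, so a strong peak in few cells and a weaker peak in many cannot be told apart. The promoter driving the tagged protein is not given in the sources used here, and neither is the read depth. Each replicate list held 30000 peaks. The thresholded list was drawn from the replicates and their pool by the irreproducible discovery rate (IDR) and is called the IDR list here. Peaks are ordered by the deposited signal value, rank 1 being the strongest; the scale of that value is not defined, so ranks are used across lists.

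Ecdysone, the steroid hormone that times insect development, acts through the receptor pair EcR and Usp and switches on a small set of early genes, of which Eip75B is among the best known. E75 binds haem, is related to the mammalian REV-ERB receptors, and opposes activation by the nuclear receptor Hr3, an effect that nitric oxide can relieve. Its isoforms come from alternative start sites, differ at the N terminus, and include a form that lacks part of the DNA-binding domain. Blimp-1, the fly homologue of the zinc finger repressor PRDM1, is itself ecdysone-induced and is known in the fly for delaying expression of ftz-f1.

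The sequences below show the 5 strongest peaks of the locus, which have its highest signal values, and the other peaks with a Blimp-1 site at the summit. A Blimp-1 site means AGTGAAAG or AGCGAAAG on either strand, complete within the 50 bp on each side of the summit. GAAAGTGA, a related form that overlaps the site in AGCGAAAGTGA, is also marked. All are the Release 6 reference sequence in the RefSeq copy, on dm6 coordinates, written 5′ to 3′ on the minus strand, which is the strand of Eip75B; capitals mark AGTGAAAG, AGCGAAAG or GAAAGTGA on either strand.
Rank 4, chr3L:17968617-17968717: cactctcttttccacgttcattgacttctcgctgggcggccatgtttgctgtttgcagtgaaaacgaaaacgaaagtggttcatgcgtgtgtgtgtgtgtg
Rank 5, chr3L:17937460-17937560: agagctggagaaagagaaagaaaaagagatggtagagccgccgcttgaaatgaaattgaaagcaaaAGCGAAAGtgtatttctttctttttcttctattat
Rank 33, chr3L:17967438-17967538: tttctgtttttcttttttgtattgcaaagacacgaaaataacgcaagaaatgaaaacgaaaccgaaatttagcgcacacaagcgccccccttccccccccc
Rank 44, chr3L:17962829-17962929: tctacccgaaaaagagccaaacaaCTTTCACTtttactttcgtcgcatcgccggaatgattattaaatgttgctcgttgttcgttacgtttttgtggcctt
Rank 49, chr3L:17973118-17973218: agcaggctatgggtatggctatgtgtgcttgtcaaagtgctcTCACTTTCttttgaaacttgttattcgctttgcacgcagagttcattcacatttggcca
Rank 51, chr3L:17965285-17965385: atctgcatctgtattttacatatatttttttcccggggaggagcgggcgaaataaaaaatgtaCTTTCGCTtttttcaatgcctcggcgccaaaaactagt
Rank 156, chr3L:17939809-17939909: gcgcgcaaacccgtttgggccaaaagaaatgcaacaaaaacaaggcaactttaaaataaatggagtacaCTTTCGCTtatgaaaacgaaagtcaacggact
Rank 845, chr3L:17938772-17938872: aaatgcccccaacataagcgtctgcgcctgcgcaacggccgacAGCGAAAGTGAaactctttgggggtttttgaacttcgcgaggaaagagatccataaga
Rank 9500, chr3L:18036361-18036461: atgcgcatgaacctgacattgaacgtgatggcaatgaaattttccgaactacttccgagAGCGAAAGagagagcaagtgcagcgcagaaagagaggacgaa
Each summit is the middle base of its line. The strongest peak held neither spelling of the site, its closest 8 bases having 1 mismatch to AGTGAAAG, and the peak of rank 33 came no closer than 2 mismatches. The peak of rank 49 held GAAAGTGA alone. The other 6 held a complete site, 1 of them AGTGAAAG and 5 AGCGAAAG.

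Eip75B has 7 annotated start sites, and the peaks were not spread evenly among them. In the order of transcription these are RF, RE, RB, RG, RC, RA and RD, named by their transcripts. RF, RE and RB lie within 5098 bp of one another and encode a protein of 1412 residues each; RG, RC, RA and RD follow at 38664, 64875, 93257 and 102882 bp from RF and encode 991, 1199, 1355 and 906 residues. Of the 6 strongest peaks in the gene body, 4 lay between RA and RD, 1 lay 1729 bp upstream of RA, and the last, of rank 78, lay 6364 bp downstream of RC. The stretch from RA to RD, 9.625 kb long, held 7 summits, or 7.27 per 10 kb, and 6 of the 7 were among the strongest 952 peaks of the IDR list. Its median rank was 51, against 3160 for the whole locus and 4758 for the whole list.

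**Figure D1:**
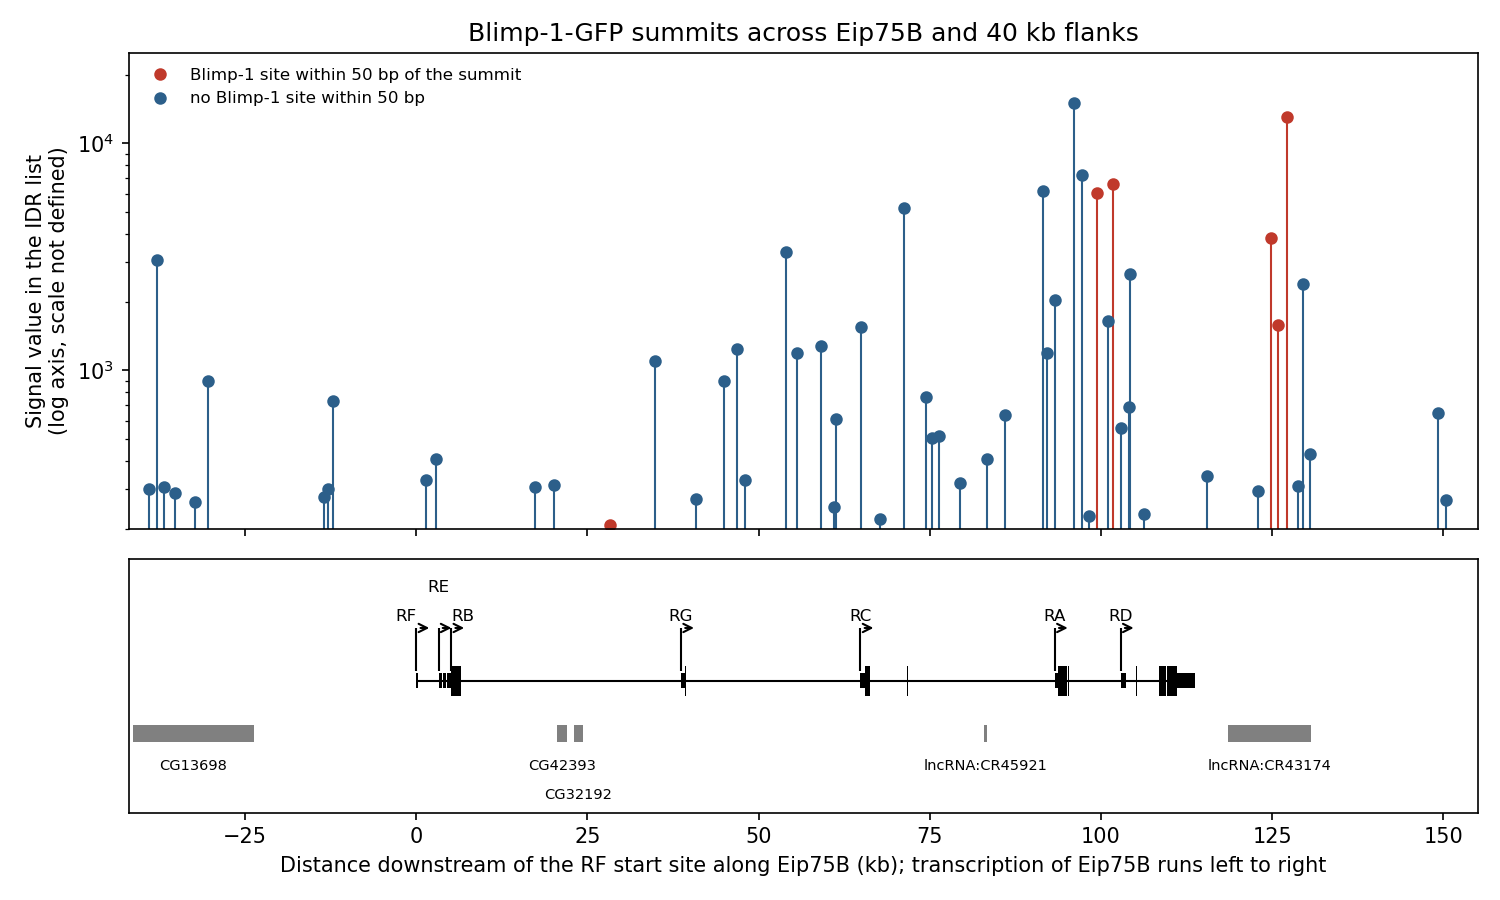
Upper panel: deposited signal value of each of the 56 IDR summits (log axis, scale not defined) against distance downstream of the RF start site in kb, with summits holding a Blimp-1 site within 50 bp in red. Lower panel: Eip75B exons (black), its 7 start sites (arrows) and other genes (grey). The tallest stems stand between RA and RD and, beyond the gene, in lncRNA:CR43174, where the peak of rank 5 has a signal of 12999.

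The strongest peak of the locus lay 2772 bp downstream of the RA start, in an intron, at chr3L:17968141-17969355. It was rank 4 of 9515 with a signal value of 15050, with ranks of 3, 5 and 5 in replicates 1 to 3 (mean 4.33 ± 1.15, SD, n = 3), with signals of 7286, 3618 and 4185. Its position near the top thus varied by 2 places between replicates. At 3951 bp downstream of RA, the peak of rank 33 ranked 23, 51 and 46. Upstream of RD by 3521 bp, the peak of rank 51 ranked 69, 43 and 51. Closer to RD, 1065 bp upstream, the peak of rank 44 ranked 50, 30 and 39. The peak of rank 33 changed place relative to those of rank 44 and rank 51, so its place among these 3 lay within the replicate spread. The peak of rank 44 stayed ahead of that of rank 51 in every replicate. The peak of rank 49, 1729 bp upstream of RA, ranked 47, 46 and 64 (mean 52.3 ± 10.1, SD, n = 3). In replicates 1 and 2 it lay inside the range of the peaks of rank 33, 44 and 51. In replicate 3 it lay behind all 3.

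Further upstream, the peaks of rank 78 and rank 226 were placed higher in replicate 1 than in either other replicate. That of rank 78 lay 6364 bp downstream of RC and ranked 43, 137 and 160 (mean 113 ± 62.0, SD, n = 3). That of rank 226, 10911 bp upstream of RC, ranked 107, 471 and 471 (mean 350 ± 210, SD, n = 3). Replicates 2 and 3 lay close to each other for both peaks. Between RD and the end of the gene, the highest-ranked peak was that of rank 331, at ranks 207, 463 and 547.

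The start sites themselves were occupied unequally. A summit lay within 500 bp of RE, RC, RA and RD, and none within that distance of RF, RB or RG. The summit 72 bp downstream of RA was rank 554 in the IDR list and ranked 591, 394 and 595 in the replicates (mean 527 ± 114.9, SD, n = 3). The summit 102 bp downstream of RC was rank 888 and ranked 1392, 872 and 713 (mean 992 ± 355). The summit 112 bp downstream of RD was rank 3593 and ranked 3651, 3259 and 3675 (mean 3528 ± 234). The order RA, then RC, then RD was the same in all 3 replicates, with no overlap of ranks. At RE, whose summit lay 427 bp upstream, the rank was 5083 in the IDR list and 4357, 5188 and 7903 in the replicates (mean 5816 ± 1855), below RD in each. The nearest summits to RF, RB and RG lay 1451, 2282 and 2163 bp away. The pooled list, which reaches below the threshold, placed 2 peaks within 500 bp of RD, 2 at RA and 1 each at RC, RE and RF, and none at RB or RG.

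The bases just upstream of the 3 starts with the nearest summits are printed so that the promoters can be compared; each line is the 100 bp before the start on the minus strand, from the same reference, and none held AGTGAAAG, AGCGAAAG or GAAAGTGA.
RA, chr3L:17971440-17971539: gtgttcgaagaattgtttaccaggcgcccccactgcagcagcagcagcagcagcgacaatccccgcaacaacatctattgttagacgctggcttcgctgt
RC, chr3L:17999822-17999921: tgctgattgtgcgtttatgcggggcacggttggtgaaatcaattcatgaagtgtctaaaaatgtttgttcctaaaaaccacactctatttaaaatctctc
RD, chr3L:17961815-17961914: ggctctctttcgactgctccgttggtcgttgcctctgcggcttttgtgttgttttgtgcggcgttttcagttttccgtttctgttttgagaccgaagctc
The absence of these letters applies to these windows alone. The summits at RA, RC and RD fell just inside the transcripts, and no site lay within 50 bp of any of them. The closest site to a start-site summit was an AGCGAAAG 266.5 bp from the RA summit, within the same peak. The summit at RE, of rank 5083, also had no site within 50 bp, but it did hold GAAAGTGA there.

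Most of the binding in the locus was intronic. With promoter defined as 500 bp from any annotated start, 44 of the 56 summits (78.6%) were in introns and 6 (10.7%) at promoters, against 47.0% and 31.4% of all IDR summits. The remaining 5 were intergenic and 1 was in an exon of a long non-coding RNA. No summit was assigned to a coding exon or an untranslated region away from a start. Within Eip75B, 33 summits were in introns and 4 at promoters. Introns make up most of this long gene, and the shares were not corrected for that.

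The density of summits differed between stretches of the gene in the same order in every replicate for the 3 longest stretches. From RB to RG, 33.566 kb, 4 summits were found (1.19 per 10 kb), and the strongest 9515 peaks of replicates 1, 2 and 3 placed 4, 3 and 3 there. From RG to RC, 26.211 kb, there were 9 summits (3.43 per 10 kb) and 13, 9 and 6 in the replicates (mean 9.33 ± 3.51, SD, n = 3). From RC to RA, 28.382 kb, there were 11 (3.88 per 10 kb) and 15, 12 and 12 in the replicates. Every replicate thus placed fewer peaks in the first of these stretches, although it is the longest of the 3, and the order of RG to RC and RC to RA was also kept in every replicate. In the stretch from RA to RD the replicates placed 7, 8 and 8 peaks (mean 7.67 ± 0.577). From RD to the gene end, 10.862 kb, the IDR list held 4 summits and the replicates 4, 3 and 3. The 3.243 kb from RF to RE held 2 in every list, a high density that rests on few peaks, and the 1.855 kb from RE to RB held none in any.

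**Figure D2:**
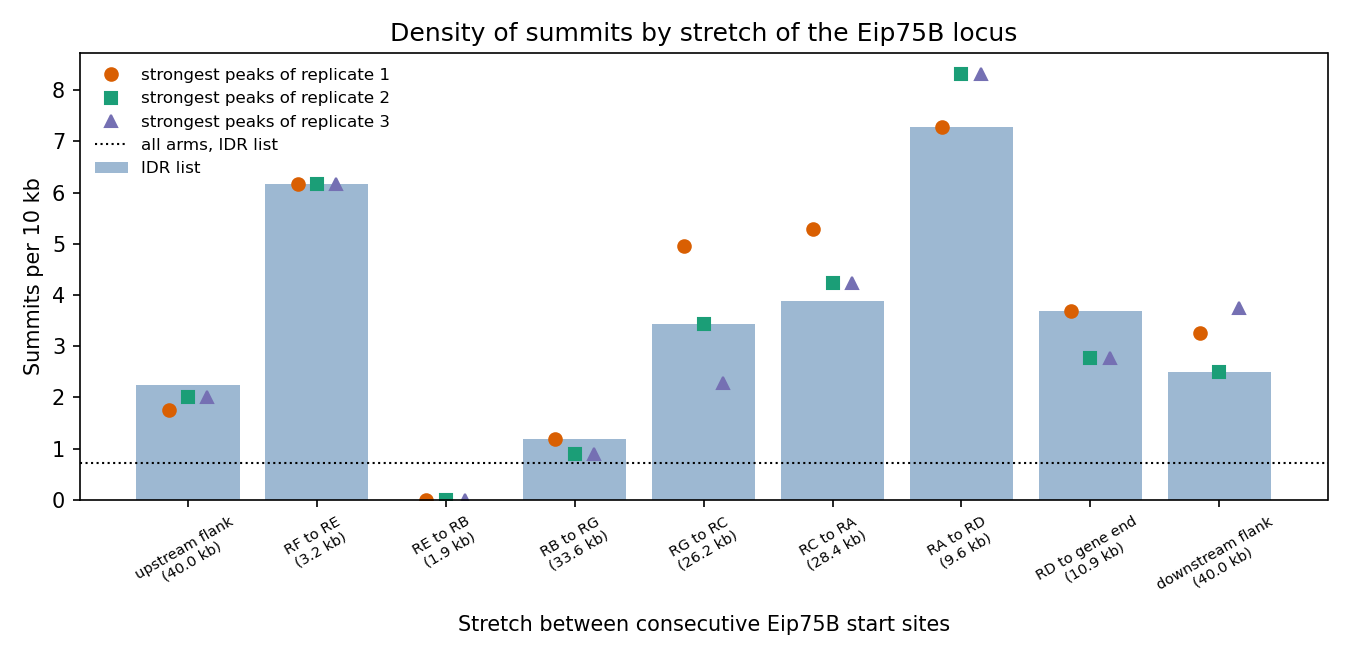
Summits per 10 kb (vertical axis) in each stretch between consecutive Eip75B start sites and in the 40 kb flanks, with the IDR list as bars, the strongest 9515 peaks of each replicate as points, and the density over all chromosome arms (0.711 per 10 kb) as a dotted line. The stretch from RA to RD reaches 7.27 per 10 kb and that from RB to RG 1.19.

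Over the whole gene body the IDR list held 3.25 summits per 10 kb, and the strongest peaks of the replicates 3.96, 3.25 and 2.99 (mean 3.40 ± 0.50, SD, n = 3). The flanks held 2.38 per 10 kb, 2.25 upstream and 2.5 downstream. For comparison, arm 3L held 0.783 per 10 kb. Neighbouring summits were a median of 1850 bp apart, the closest pair 205 bp and the widest gap 18.712 kb in the downstream flank. Together the peak intervals covered 29.766 kb, or 15.4% of the locus. Some summits shared an interval, so the 56 summits lay in 52 distinct intervals.

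The strongest peak outside the gene sat in a non-coding RNA gene downstream of it. The gene lncRNA:CR43174 lies on the opposite strand and held 7 summits. Its peak of rank 5, 24304 bp beyond the RD start, had a signal of 12999 and ranked 6, 8 and 10 in the replicates (mean 8.0 ± 2.0, SD, n = 3). Beside it were peaks of rank 156, at 142, 177 and 191 in the replicates, and of rank 845, at 691, 857 and 1161. All 3 held AGCGAAAG within 50 bp, and their order was the same in each replicate. A further strong peak of the gene, rank 413 at 273, 516 and 475, had no site there and came no closer than 3 mismatches to AGTGAAAG. The peak of rank 4827 at the start of the same gene ranked 3243, 5033 and 8176. In the upstream flank the strongest peak, rank 264, lay in an intron of CG13698 and ranked 151, 490 and 402.

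Protein-coding neighbours other than CG13698 held no peak. CG5290 in the downstream flank, CG44006, CG44005, CG44004 and CG34253 in the upstream flank, and CG32192 and CG42393, which lie inside Eip75B, had no IDR summit in the gene or within 500 bp of a start. CG13698, whose start lies outside the locus, held 6 summits. For 39 of the 56 summits the nearest protein-coding start was an Eip75B start. At the edges of the locus, the last summit inside the upstream flank lay 39073 bp from the gene at rank 6779, and the first outside lay at 41643 bp at rank 4025. Downstream, the last inside lay at 36658 bp at rank 7559, and the next one was 93804 bp away at rank 3498.

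The locus took a larger part of the top of the list than of the whole. Of its 56 peaks, 16 (28.6%) were among the strongest 952, a set that holds 10.0% of all peaks by construction, and 13 of those were in introns. Among the strongest 952 of replicates 1, 2 and 3 the number was 17, 15 and 15. Among the strongest 100 peaks of the list, 7 were in the locus and 6 in the gene body; the next gene was ftz-f1 with 4. These counts rest on the values that chose the locus and support nothing further. At the other end, the weakest locus peak, rank 9500 with a signal of 208.4, lay in an intron 10379 bp upstream of RG, held AGCGAAAG, and ranked 6426, 13674 and 16110. The strongest locus peak below the threshold was rank 9641 of the pooled list with a signal of 204.8, and 100 pooled peaks of the locus fell below the threshold.

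**Figure D3:**
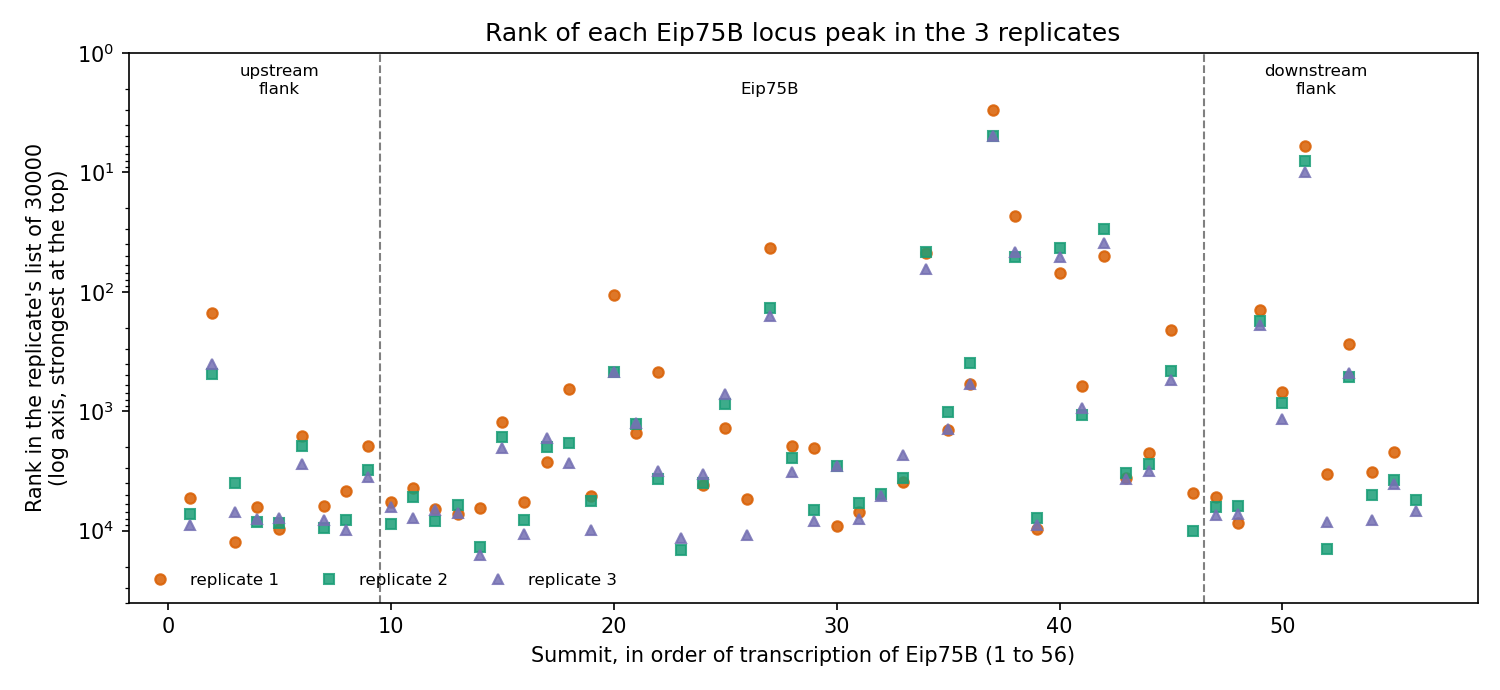
Rank of each of the 56 locus peaks in the list of 30000 peaks of each replicate (log axis, strongest at the top), with summits ordered along the direction of Eip75B transcription. Circles, squares and triangles are replicates 1, 2 and 3, dashed lines bound the gene, and peaks with no match within 100 bp have no symbol. The peak of rank 4 is the highest of the locus in all 3 replicates, at 3, 5 and 5, while the symbols of rank 226 lie far apart at 107, 471 and 471.

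The replicates found nearly all of the locus peaks. A peak within 100 bp was present in all 3 full lists for 51 of 56 (91.1%; 95% Wilson interval 80.7 to 96.1%), close to the 91.4% of all IDR peaks. Among the strongest 9515 peaks of each replicate the number was 42 (75%; 62.3 to 84.5%), against 69.9%. These intervals cover counting error only and treat peaks that share libraries and a control as separate. The IDR list was drawn from these same replicates, and its peaks are the strongest 9515 of their pooled list. A high share of matches is therefore not independent evidence of reproducibility. A match in every replicate was not required: over the whole list, 730 peaks matched in 2 full lists, 83 in 1 and 4 in 0. Each of the other 5 lacked a match in 1 replicate. The peaks of rank 5054, 7559 and 8049 were missing from replicate 1, that of rank 9015 from replicate 2 and that of rank 8631 from replicate 3. Where they were found, that of rank 5054 was at 4885 and 5168, that of rank 7559 at 5587 and 6783, and that of rank 8049 at 14517 and 11523. The peak absent from replicate 2 was at 5417 and 10898 in the others, and the peak absent from replicate 3 at 4824 and 9991. All 5 lay below the median rank of the IDR list, 4758, and none was better than rank 4824 in any replicate. That of rank 5054 was close to the middle of the list, with a signal of 407.7 against a median of 433.3. The median distance between a locus summit and its match was 12 bp, and 11 bp over the whole list.

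Ranks within the locus were closest between replicates 2 and 3. Spearman's rho was 0.949 over 54 peaks for that pair, 0.869 over 52 for replicates 1 and 2 and 0.841 over 52 for replicates 1 and 3. Over all IDR peaks the values were 0.897, 0.851 and 0.826. These are descriptions over peaks that share libraries and the control, not over samples.

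Replicate 1 placed the locus higher than the other 2 did, a comparison added after the ranks had been seen. Of the 51 peaks matched in all lists, 33 (64.7%) had their best rank in replicate 1, against 37.7% of 8698 matched peaks in the whole list, and 14 had their worst rank there. The median log2 ratio of the rank in replicate 1 to the geometric mean of the other 2 ranks was −0.52 in the locus and 0.00393 over all peaks, a negative value meaning a higher place in replicate 1. In the flanks 15 of 18 peaks had their best rank in replicate 1, in the gene body 18 of 33, and at the gene's start sites 1 of 4. The widest differences were in the gene body, where the peak of rank 1196 ranked 467, 3671 and 3169, and the peak of rank 3936 went the other way at 9144, 2867 and 2897.

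Base composition moved with this difference. The locus summits had a median GC content of 43.6% within 50 bp of the summit, against 34.7% over all summits. Over the whole list, 56.6% of 2957 matched peaks with a GC content of 40% or more had their best rank in replicate 1, against 28% of 5741 below 40%. In the locus the numbers were 24 of 32 and 9 of 19. The part of GC content in the difference between replicates was not tested.

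**Figure D4:**
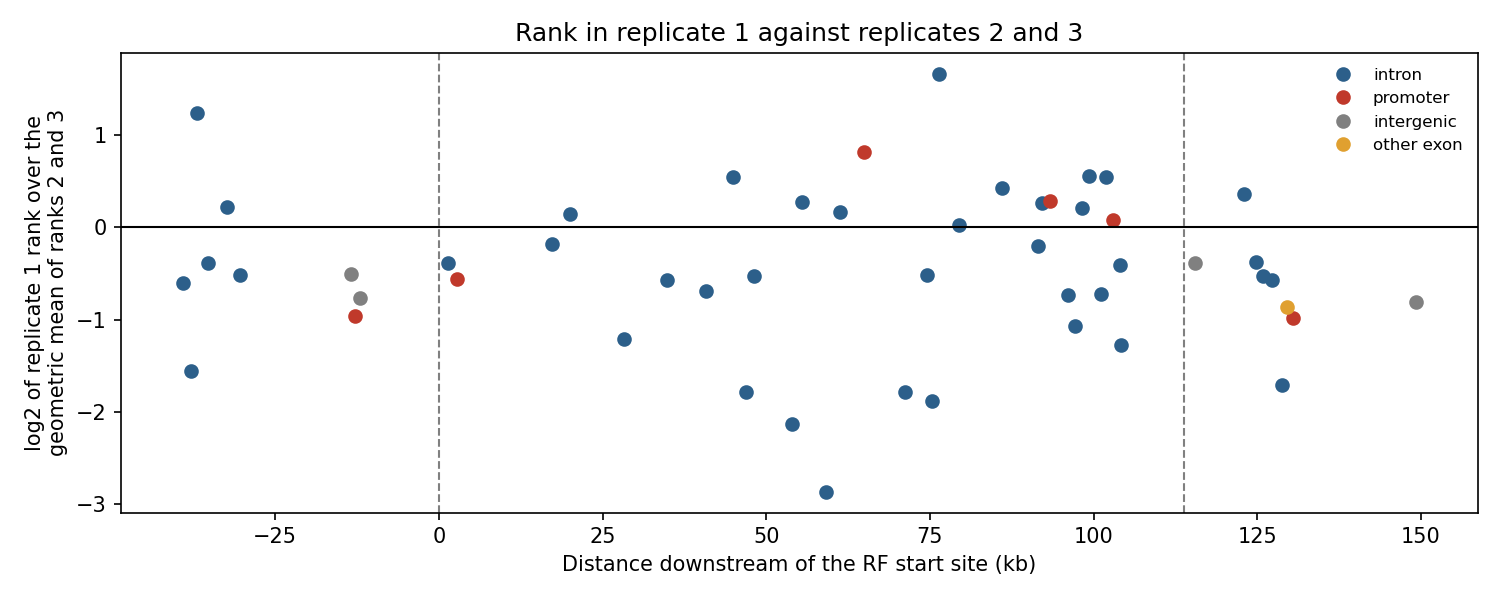
Log2 of the rank in replicate 1 over the geometric mean of the ranks in replicates 2 and 3 (vertical axis) for the 51 locus peaks matched in all lists, against distance downstream of the RF start site in kb. Colours give the class of the summit, the solid line marks equal ranks and dashed lines bound the gene. More points lie below 0, with a locus median of −0.52, and the lowest point is the peak of rank 1196.

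A Blimp-1 site lay within 50 bp of 6 of the 56 summits (10.7%, 95% Wilson interval 5.0 to 21.5%), and of 6.31% of all IDR summits. The interval covers counting error only, and the difference was not tested. In the summits each replicate placed in the locus among its strongest 9515, the numbers were 7 of 65, 6 of 55 and 6 of 57 (mean 10.7% ± 0.194, SD, n = 3). The replicates share most of these peaks, so that spread is not one of separate sequences. Over all of the strongest 9515 peaks of replicates 1, 2 and 3 the shares were 6.88%, 5.60% and 5.36% (mean 5.95% ± 0.82, SD, n = 3). By spelling, AGCGAAAG was found at 5 summits (8.93%; all 2.22%) and AGTGAAAG at 1 (1.79%; all 4.18%); these small counts were not tested for a difference. Windows of the same length centred 500 bp to the right of the summit in reference coordinates held a site in 4 of 56 (7.14%) in the locus and in 0.956% of all. Of those 4 windows, 2 were centred inside the interval of the same peak, so they are not all free of peaks. Locus summits were richer in GC than all summits, and the site share differed with GC content. At a GC content of 40% or more, 4 of 35 locus summits (11.4%) and 12.2% of all summits held a site. Below 40%, 2 of 21 locus summits (9.52%) and 3.21% of all did.

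The site was more frequent among the strongest peaks. Of the 16 locus peaks among the strongest 952, 5 held it (31.3%), while 12.3% of all 952 did. Those of rank 5, 156 and 845 lay in lncRNA:CR43174, outside Eip75B. Only those of rank 44 and 51 lay in the gene body, which held 11 of the 16. Over the whole gene body, 3 of 37 summits (8.11%) had a site. These small counts were not tested. Allowing 1 mismatch to AGTGAAAG raised the locus number to 23 of 56 (41.1%), against 23.6% of all, and to 8 of 16 among the strongest, against 34.2%. Site centres lay between 22.5 bp upstream and 22.5 bp downstream of the 6 summits. Over the locus as a whole the site occurred 28 times, 10 times as AGTGAAAG and 18 times as AGCGAAAG. Of these, 13 were inside a locus peak and 6 within 50 bp of a summit, and 15 were outside every IDR peak of the locus. Counting a site anywhere in the peak interval, 13 of the 56 held at least 1, against 12.2% of all peaks. The summits of rank 44 and 796 share an interval with a site, as do those of rank 331 and 2797. Such an interval was counted for each of its summits. Locus peaks were wider than the rest, with a median of 420 bp against 357 bp.

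Other sequence words were searched on both strands in the same windows. GAAAGTGA was found at 6 summits (all 5.42%) and ACTTTC, which lies inside the reverse complement of GAAAGTGA, at 18 (32.1%; all 19.4%). TGACCT, the core word of nuclear receptor binding, was found at 5 summits (8.93%; all 2.15%). TCAAGGTCA, the extended word bound by Ftz-F1, contains the reverse complement of TGACCT; it was found at 2 locus summits of the 7 in the entire list (all 0.0736%). Those 2 windows are printed because Ftz-F1 is a nuclear receptor of the same hormone cascade, with capitals on TCAAGGTCA on either strand and the same reference, build and minus strand as above.
Rank 6214, chr3L:18016571-18016671: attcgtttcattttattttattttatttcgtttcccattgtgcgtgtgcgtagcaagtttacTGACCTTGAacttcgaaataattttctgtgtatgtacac
Rank 8631, chr3L:17958373-17958473: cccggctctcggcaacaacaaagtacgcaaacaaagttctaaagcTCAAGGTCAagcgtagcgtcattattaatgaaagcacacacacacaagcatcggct
Both were weak intronic peaks, ranked 5170, 5630 and 9866 in the replicates for the former, and the latter was the peak missing from replicate 3. A match is a description of the letters, not evidence of binding by the factor. In the windows 500 bp to the right, TGACCT was found in 1 of 56 (1.79%) in the locus and in 2.28% of all. TCAAGGTCA was found there in 0 locus windows and in 7 of all, the same number as at the summits. GAGAGAG, the word of GAGA factor, was found at 1 locus summit (all 2.06%) and ACCGGTT, the word of Grainy head, at 1 (all 0.336%). The words TATCGATA of DREF (all 0.578%), GGTCACAC of M1BP (all 0.494%), TTAATTA of homeodomains (all 5.37%) and CAGGTAG of Zelda (all 0.378%) were at 0 locus summits.

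Among long genes Eip75B was near the top in summit density. Of the 307 protein-coding genes of at least 50 kb, with a median of 0.398 summits per 10 kb and 86 genes with none, Eip75B was in place 2 at 3.25. Hr4, an ecdysone-induced nuclear receptor gene, was in place 1 at 4.09, with 27 summits in 66.017 kb. RapGAP1, a GTPase-activating protein gene, followed at 3.20, and Pdp1, a bZIP factor of the circadian clock, at 3.04. The Eip75B density had a replicate SD of 0.50, larger than its distance to RapGAP1 and Pdp1 in the IDR list. The densities of RapGAP1 and Pdp1 were not computed by replicate. Whether the order of these 3 holds within each replicate was therefore not tested.

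**Figure D5:**
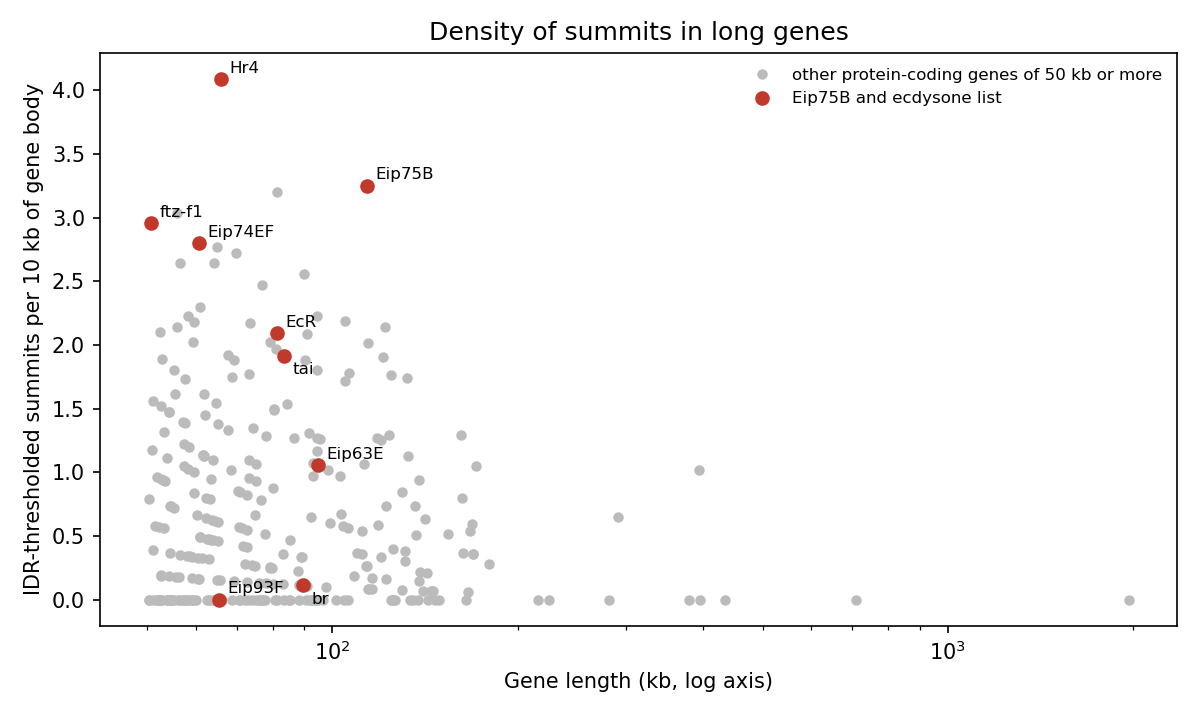
IDR summits per 10 kb of gene body (vertical axis) against gene length in kb (log axis) for the 307 protein-coding genes of 50 kb or more, with ecdysone response genes in red. Eip75B, at 3.25, lies below Hr4, at 4.09, and above the median gene, at 0.398.

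Eip75B was not alone among ecdysone response genes. Of the 30 other genes on a list of the response, 24 had an IDR summit in the gene or within 1 kb, against 32.4% of all 13945 protein-coding genes. Within 1 kb of a start, 21 of the 30 had a summit, against 24.9% of all protein-coding genes. Gene length was not matched in these comparisons. All 3 genes of the receptor and its partners held summits: EcR, the ecdysone receptor, had 17, tai, its coactivator, also had 17, and usp, its partner, had 2. All 3 other early genes did, but unevenly: Eip74EF, an ETS-domain factor, had 18, Eip78C, a nuclear receptor gene, had 4, and br, a zinc finger factor gene, had 1. That summit gave br a density of 0.111 per 10 kb, below the long-gene median, and none lay within 1 kb of a br start. Of 12 early-late and late regulators 10 did, led by Hr4 with 27 and ftz-f1, a nuclear receptor gene, with 16; Eip93F, a factor of adult metamorphosis, and svp, a nuclear receptor gene, had none. Of the 11 other induced genes 8 did, and Cth, ImpE2 and ImpL1 had none. Nos, the nitric oxide synthase gene, had none. Eip75B itself had 37, and the largest count among the others was 27. Counts grow with gene length, and by density in the gene body Eip75B, at 3.25 per 10 kb, was not first. MsrA (4.65, from 1 summit), Hr3 (4.20), Hr4 (4.09) and ImpL2 (3.29) were denser, and the rest of the list was less dense. All of these except Hr4 are shorter than 50 kb and so were not in the ranking of long genes.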

How the data were processed

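Each deposited list gives, per peak, coordinates on dm6, a summit position, a signal value and a −log10 q-value. Per the deposited notes, the authors called peaks on each replicate and on the replicates together, all against 1 control alignment, and took the IDR list from these; for the aligner, the peak caller and the cut-off on the IDR, nothing is given in the sources used here. The signal value is the authors' own score for a peak on an undefined scale and was used only to rank peaks within a list. The deposited −log10 q-value was not used for ranking, and the depth of the samples is unknown. All 9515 IDR peaks were the strongest 9515 of the pooled list.

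From these lists, Python 3.11.15 with numpy 2.4.6, pandas 2.3.3 and scipy 1.17.1 assigned summits to genes of Ensembl release 115, matched replicate peaks within 100 bp, and searched 50 bp on each side of every summit on both strands of the Release 6 assembly. A summit within 500 bp of any start counted as promoter. The counting scripts were tested on simulated data. With 1 group and members chosen by their peaks, no test was run, and the Wilson intervals cover counting error only.

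Members, gene lists and words were chosen with earlier results of these data known. Named are the 10 strongest locus peaks, those within 500 bp of an Eip75B start or with a site within 50 bp, the weakest, those missing from a replicate, protein-coding genes starting in the locus, the genes nearest in density, and the ecdysone genes with the most summits or with none. Other peaks and genes were named after their values were seen.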

Additional observations from a re-analysis of the deposited data

How the results depend on the processing

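Of 43 alternatives over 8 results, 34 stayed within 1.5 times the reported value. The 56 locus peaks became 37 with the gene body only, 32 in the 4757 strongest IDR peaks and 156 in the pooled list. The 6 summits with a site became 3 in the gene body only, 1 with AGTGAAAG alone and 23 with 1 mismatch to AGTGAAAG allowed. The 4 summits within 500 bp of a start became 7 in the pooled list. The density of 3.25 per 10 kb became 2.11 in the 4757 strongest peaks and 8.88 in the pooled list. These settings change the set of peaks or letters counted by construction. Requiring a match in only 2 replicates, leaving out each in turn, gave 52 to 54 peaks in place of 51 for the full lists and 44 to 47 in place of 42 for the strongest peaks. No paired analysis was possible because there is only 1 group. Depth is unknown, so a stretch without a peak is not shown to lack binding.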

Other observations

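The peaks below the threshold were also laid out unevenly. The pooled list placed 23 of them between RG and RC, or 8.77 per 10 kb, and 22 between RC and RA, or 7.75 per 10 kb. From RA to RD it placed 2, or 2.08 per 10 kb, and from RB to RG 9, or 2.68 per 10 kb. With peaks above the threshold included, the pooled density was 12.2 per 10 kb from RG to RC and 11.6 from RC to RA. It was 9.35 from RA to RD and 3.87 from RB to RG. The space taken up by peaks above the threshold was not corrected for. The downstream flank held 22, or 5.5 per 10 kb, and the upstream flank 14, or 3.5 per 10 kb. These are values from a single list called on all replicates together, with no replicate spread.

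The Blimp-1 gene itself held 4 IDR summits in the gene or within 1 kb, the strongest at rank 566. Hr3, whose activity E75 opposes, held 15, the strongest at rank 162.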
